A study of Mus musculus with 6 samples.

Results

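Cells that run glycolysis export lactate together with protons, and they buffer and move the resulting acid with bicarbonate. Carbonic anhydrases convert carbon dioxide and water to bicarbonate and a proton, some in the cytosol and some on the outer face of the plasma membrane. Monocarboxylate transporters (MCTs, genes of the Slc16 family) carry lactate, pyruvate and ketone bodies across membranes with a proton, and several reach the cell surface only with a partner glycoprotein such as basigin. In pigment cells acid handling has a further role, since tyrosinase, the first enzyme of melanin synthesis, works poorly in an acidic melanosome. The genes described here are 4 carbonic anhydrases (Car14, Car2, Car12, Car13), 4 MCT genes (Slc16a1, Slc16a3, Slc16a6, Slc16a7) and basigin (Bsg), 9 of the 35275 gene IDs in the count table, found by symbol.

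RNA was sequenced from Melb-a, a line of immortal melanoblasts (melanocyte precursors) of C57BL/6J mice labelled as melanocytes, after 48 h in DMEM with 10% serum, 2 nM of the melanocyte hormone analog NDP-alpha MSH and 200 nM of a phorbol ester. To this medium either 10 µM iBRD9, an inhibitor of the bromodomain of the SWI/SNF subunit BRD9, or its vehicle DMSO was added, with 3 libraries per treatment, and the comparison asks which transcripts differ with the inhibitor. All samples are of 1 cell line, 1 dose and 1 time, and the design text calls them independent without saying whether they were separate cultures, so p-values measure the spread between these libraries, which may be technical. The 9 genes were chosen with their difference between iBRD9 and DMSO in view, so that difference is given for them as a description with no test.

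The iBRD9 libraries held 22846391 to 29680952 counts and the DMSO libraries 23248475 to 26675006. Mitochondrial transcripts made up 2.57% to 3.15% of counts with iBRD9 and 3.42% to 3.71% with DMSO. All 8 melanocyte markers were well above the filter on low counts, with a summed level of 14783 to 16276 TMM-scaled CPM (counts scaled to library size) with iBRD9 and 15386 to 17655 CPM with DMSO. Within that sum the markers differed in direction: Dct stood at 7222 to 8042 CPM with iBRD9 and 5628 to 6372 CPM with DMSO, whereas Tyr stood at 83.5 to 90.4 CPM with iBRD9 and 521 to 549.6 CPM with DMSO. Tyrp1 and Sox10 were lower in every iBRD9 library than in any DMSO library, Sox10 with 387 to 395 CPM with iBRD9 and 619 to 811 CPM with DMSO. Of the markers of other cells, 5 of 6 for fibroblasts passed the filter and summed to 130.8 to 144.6 CPM with iBRD9 and 75.2 to 99.7 CPM with DMSO. That difference was mainly in Dcn (112 to 125 CPM with iBRD9 and 43.1 to 57.5 with DMSO). Col1a1, far lower in level, was also higher with iBRD9 (2.88 to 4.52 CPM with iBRD9 and 0.651 to 0.717 with DMSO). Col1a2 went the other way (7.20 to 8.44 CPM with iBRD9 and 23.9 to 35.9 with DMSO), and the ranges of Pdgfra and Lum overlapped. Those of endothelium summed to 3.96 to 5.78 CPM with iBRD9 and 1.09 to 1.48 CPM with DMSO. Kdr, the only 1 of these 3 to pass the filter, made up most of that difference (3.36 to 5.15 CPM with iBRD9 and 0.781 to 1.10 with DMSO). Keratinocyte markers summed to 3.50 to 4.35 CPM over all libraries. Over the same libraries macrophage markers summed to 5.45 to 7.77 CPM and erythroid markers to 0.478 to 0.800 CPM. Within the macrophage sum Csf1r was higher with iBRD9 (1.59 to 1.92 CPM, against 0.126 to 0.434 with DMSO). Cd68 was lower with iBRD9 (3.84 to 4.61 CPM, against 5.69 to 7.49 with DMSO). Krt5, Krt1, Ptprc and Hbb-bs were at 0 in every library. The part of these sums and shares in the results below was not tested. Replicate 1 of DMSO differed from its fellow libraries, with a chi-square per degree of freedom of 29.2 and 37.5 against these, where DMSO replicates 2 and 3 gave 3.06 between themselves. Replicate 1 of iBRD9 also stood apart, by less, with 6.33 against each of its fellow libraries. Replicates 2 and 3 of iBRD9 gave 1.93 between themselves.

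Windows of 250 bases before the annotated start were at hand for 4 of the 9 genes (RefSeq, GRCm38.p6). Shown are those of Car14, one of the members with the largest difference, of Slc16a1, whose groups overlapped, and of Slc16a3, whose human counterpart is a textbook target of hypoxia-inducible factor. Each runs 5′ to 3′ on the gene's strand, and capitals mark ACGTG, a form of the core of the hypoxia response element. It is marked on either strand (CACGT on the reverse strand), with any overlap with the E-box CACGTG included. The form GCGTG was not searched and is not marked.
Car14 (chr3:95904686-95904935, minus strand): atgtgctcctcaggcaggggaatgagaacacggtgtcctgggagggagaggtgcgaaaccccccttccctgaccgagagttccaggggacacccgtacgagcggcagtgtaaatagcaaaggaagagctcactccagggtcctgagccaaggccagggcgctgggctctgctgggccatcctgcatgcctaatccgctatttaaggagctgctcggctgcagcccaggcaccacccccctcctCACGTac
Slc16a1 (chr3:104638414-104638663, plus strand): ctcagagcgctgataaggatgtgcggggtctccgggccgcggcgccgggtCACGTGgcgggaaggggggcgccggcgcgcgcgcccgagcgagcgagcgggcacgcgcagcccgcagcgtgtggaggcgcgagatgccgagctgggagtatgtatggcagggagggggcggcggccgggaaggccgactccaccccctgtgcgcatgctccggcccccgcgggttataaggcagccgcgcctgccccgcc
Slc16a3 (chr11:120948817-120949066, plus strand): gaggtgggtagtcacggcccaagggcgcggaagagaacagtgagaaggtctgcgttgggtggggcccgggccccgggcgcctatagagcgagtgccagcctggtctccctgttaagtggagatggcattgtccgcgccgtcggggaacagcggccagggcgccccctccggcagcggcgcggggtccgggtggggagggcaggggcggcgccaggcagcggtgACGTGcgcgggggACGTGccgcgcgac
Car14 held 1 match, on the reverse strand, Slc16a3 held 2, and Slc16a1 held the letters on both strands within 1 palindromic E-box, while the window of Car12 held 0. Of all 32851 windows of this length in the table, 16.6% held ACGTG on either strand, 6.02% held CACGTG and 12.3% held CATGTG, the E-box form often bound by the pigment cell factor MITF. None of the 4 windows held CATGTG (0 matches), and only that of Slc16a1 held CACGTG. A match is no more than the letters in this window.

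Of the 4 carbonic anhydrases described here, Car14 and Car13 carried nearly all the reads. Car14, a transmembrane enzyme whose catalytic part faces outward, stood at 27.5, 25.5 and 20.8 CPM in the iBRD9 libraries, against 170, 212 and 237 CPM in the DMSO libraries. The groups did not overlap, and the highest iBRD9 library lay far below the lowest DMSO library. The means were 24.6 ± 3.45 CPM with iBRD9 and 206 ± 33.9 CPM with DMSO (SD, n = 3 each), a log2 fold change of -3.07 (SE 0.146), so that 11.9% of the DMSO level was left. Only 30 of the 13602 tested genes, Car14 included, had a log2 fold change that low or lower. Without DMSO replicate 1, the lowest of its group, the log2 fold change was -3.19.

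Car14 shares 445 of its 2543 annotated exon bases (17.5%) with Aph1a, a gamma-secretase subunit gene on the opposite strand. Nothing in the labels says that the kit keeps strand, and reads of that stretch cannot be assigned to either gene with certainty. Aph1a stood at 183 CPM with iBRD9 and 271 CPM with DMSO, and fell by 0.57 on the log2 scale (edgeR adjusted p = 8.36e-05), which is less than the difference in Car14.

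Car13, a cytosolic carbonic anhydrase, stood at 54.8, 53.9 and 55.5 CPM in the iBRD9 libraries, against 63.7, 86.8 and 91.0 CPM in the DMSO libraries. The iBRD9 libraries lay close together below all DMSO libraries, of which replicate 1 was the nearest to them. The log2 fold change was -0.56 (SE 0.122), -0.71 when DMSO replicate 1 was left out and -0.47 when DMSO replicate 3 was. Car13 lies first in a row of carbonic anhydrase genes on chromosome 3, followed by Car1, Car3 and Car2. It held 4349 reads over the iBRD9 libraries and 5829 over the DMSO libraries. Its neighbours within that row of carbonic anhydrase genes were nearly silent: Car1 had 1 read with iBRD9 and 0 with DMSO, and Car3 had 0 in both groups.

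Car2, the fast cytosolic enzyme of red cells, kidney and osteoclasts, had 0, 1 and 0 reads in the iBRD9 libraries and 0, 0 and 0 in the DMSO libraries. Car12, a transmembrane enzyme with its active site outside the cell like Car14, had 0, 2 and 1 reads with iBRD9 and 0, 0 and 1 with DMSO. A count of 0 allows up to 3 reads in a library, which is 0.0974 to 0.127 CPM with iBRD9 and 0.118 to 0.130 CPM with DMSO (counting error only). No difference in either gene was detectable at this depth, and neither passed the filter on low counts.

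**Figure D1:**
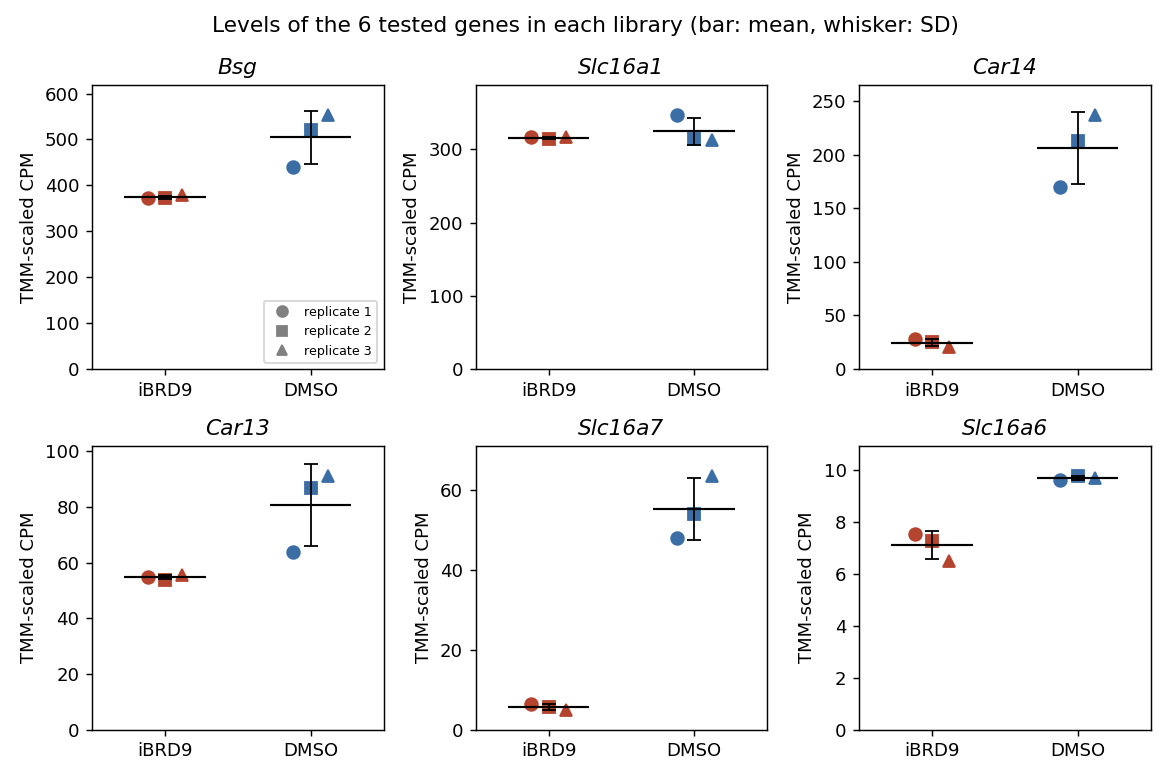
TMM-scaled CPM of the 6 genes that passed the filter on low counts, in each of the 3 iBRD9 and 3 DMSO libraries; symbols are replicates, the bar is the mean and the whisker the SD, and every axis starts at 0. Car14 and Slc16a7 were near the bottom of the axis in all iBRD9 libraries, while the points of Slc16a1 overlapped between the groups.

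Among the MCT genes Slc16a7, low in level per length, differed the most. Slc16a1, the highest per length, stayed within the range of its DMSO libraries, whose upper end was replicate 1 alone. Slc16a7 encodes MCT2, a carrier with a high affinity for pyruvate and lactate. It stood at 6.49, 5.80 and 4.90 CPM in the iBRD9 libraries, against 48.1, 54.1 and 63.6 CPM in the DMSO libraries. The groups did not overlap. The means were 5.73 ± 0.801 CPM with iBRD9 and 55.3 ± 7.78 CPM with DMSO (SD, n = 3 each), a log2 fold change of -3.26 (SE 0.138) that leaves 10.4% of the DMSO level. Leaving out any 1 library gave values between -3.37 and -3.16. In bulk RNA, less transcript per cell and fewer cells that make it cannot be told apart, for this gene as for the others.

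Slc16a1, the gene of MCT1, which imports or exports lactate according to the gradient, stood at 316, 314 and 317 CPM in the iBRD9 libraries, against 346, 314 and 313 CPM in the DMSO libraries. Every iBRD9 value lay between the lowest and the highest DMSO value. The highest was that of DMSO replicate 1 alone. Every iBRD9 value (lowest 314.4 CPM) lay above DMSO replicates 2 and 3 (314.1 and 312.7 CPM). The log2 fold change was -0.04 (SE 0.059), and its sign turned with library size alone as the scaling (0.07) and without DMSO replicate 1 (0.002).

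Slc16a6 encodes MCT7, which in zebrafish carries ketone bodies out of the liver cell. It stood at 7.53, 7.28 and 6.50 CPM in the iBRD9 libraries, against 9.64, 9.78 and 9.70 CPM in the DMSO libraries. The groups did not overlap, and the DMSO libraries were nearly equal. The log2 fold change was -0.45 (SE 0.103), and -0.34 with library size alone. Amz2, on the opposite strand, shares 1052 of the 4883 annotated exon bases of Slc16a6 (21.5%) and held more reads, at 38.6 CPM with iBRD9 and 41.1 CPM with DMSO (log2 fold change -0.09, edgeR adjusted p = 0.331). How the authors counted reads in this stretch is not given in the sources used here.

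Slc16a3, the gene of MCT4, the lactate exporter of strongly glycolytic cells, was at the edge of detection. It had 7, 8 and 10 reads in the iBRD9 libraries and 7, 7 and 10 in the DMSO libraries, or 25 reads with iBRD9 and 24 with DMSO in all. It did not pass the filter, and no difference was detectable at this depth.

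Bsg, basigin, the glycoprotein that brings MCT1 and MCT4 to the cell surface, had the highest level per length of the genes described here. It stood at 372, 372 and 378 CPM in the iBRD9 libraries, against 439, 521 and 552 CPM in the DMSO libraries. All iBRD9 values lay below all DMSO values. The log2 fold change was -0.43 (SE 0.084), with -0.53 without DMSO replicate 1 and -0.32 with library size alone. So Bsg differed by about as much as Slc16a6 and Car13. The carrier it accompanies, Slc16a1, did not leave its DMSO range, whose upper end was replicate 1 alone.

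Over the members, 6 of 9 passed the filter on low counts. Of these, 5 were past the threshold (edgeR adjusted p under 0.05) and lower with iBRD9, where 30.9% of all tested genes were called lower and 60.7% were called in either direction. The same 5 had iBRD9 libraries that all lay below the DMSO libraries, as had 34.1% of all tested genes, and 68.0% had groups that did not overlap in either direction. Since the members were chosen on this contrast, nothing is read from these counts. Their median log2 fold change was -0.50, beside 0.01 over all tested genes.

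The order of the genes by abundance differed between the groups at Car14 and Slc16a7. Per kilobase of annotated exon, Bsg was first in both groups, with 206 ± 1.95 CPM per kb with iBRD9 and 278 ± 32.3 with DMSO (SD, n = 3 each). With iBRD9 the order went on with Slc16a1 (71.3 ± 0.276), Car13 (23.8 ± 0.360), Car14 (9.66 ± 1.36), Slc16a6 (1.46 ± 0.110) and Slc16a7 (0.484 ± 0.0677), and no neighbours in that order lay within each other's spread. With DMSO it went on with Car14 (81.1 ± 13.3), Slc16a1 (73.3 ± 4.30), Car13 (35.0 ± 6.39), Slc16a7 (4.67 ± 0.657) and Slc16a6 (1.99 ± 0.0148). Car14 and Slc16a1 differed with DMSO by less than the spread of Car14, which ran from 66.7 to 93.0 CPM per kb over the DMSO libraries. Slc16a3 was far below in both groups, at 0.0608 ± 0.0183 CPM per kb with iBRD9 and 0.0628 ± 0.0145 with DMSO. These levels rest on the annotated length of all exons, which overstates the length of a transcript that uses only some of them, as may be the case for the 11.8 kb of Slc16a7.

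**Figure D2:**
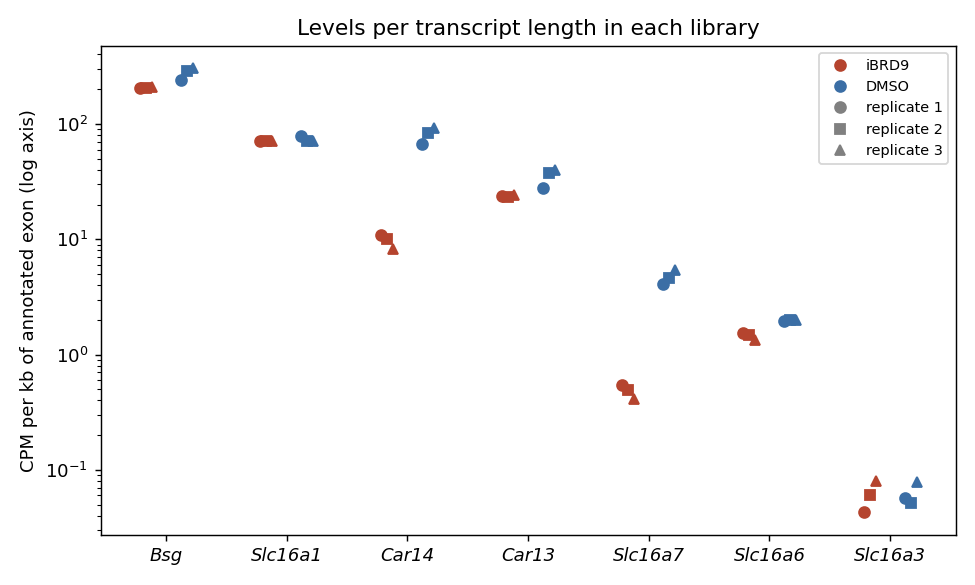
Level per kilobase of annotated exon, on a log axis, of the 7 genes with reads in all libraries, in each iBRD9 library (left of each pair) and each DMSO library (right). Car14 lay beside Slc16a1 with DMSO and below Car13 with iBRD9, and Slc16a7 lay above Slc16a6 with DMSO and below it with iBRD9.

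Set within the whole carbonic anhydrase family, Car14 took 25.8%, 24.5% and 20.4% of the family's level per kb in the iBRD9 libraries, against 61.6%, 61.4% and 63.2% in the DMSO libraries. Car13 took 57.0%, 57.3% and 60.3% with iBRD9, against 25.6%, 27.7% and 26.9% with DMSO. Car13 thus held the larger share in each iBRD9 library and Car14 in each DMSO library, though both genes were lower with iBRD9. The family's summed level was 40.9 ± 0.917 CPM per kb with iBRD9 and 131 ± 20.03 with DMSO (SD, n = 3 each). The sum includes Car8 and Car11, relatives that lack catalytic activity.

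In the SLC16 family the sum was closer between the groups, at 84.0 ± 0.840 CPM per kb with iBRD9 and 91.2 ± 4.29 with DMSO. Slc16a1 held 84.9% ± 0.721 of it with iBRD9 and 80.3% ± 1.13 with DMSO. The share of Slc16a7 was 0.576% ± 0.0763 with iBRD9 and 5.14% ± 0.894 with DMSO, and that of Slc16a6 1.73% ± 0.123 with iBRD9 and 2.18% ± 0.114 with DMSO. These shares are description, since they are built from the contrast that chose the genes.

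**Figure D3:**
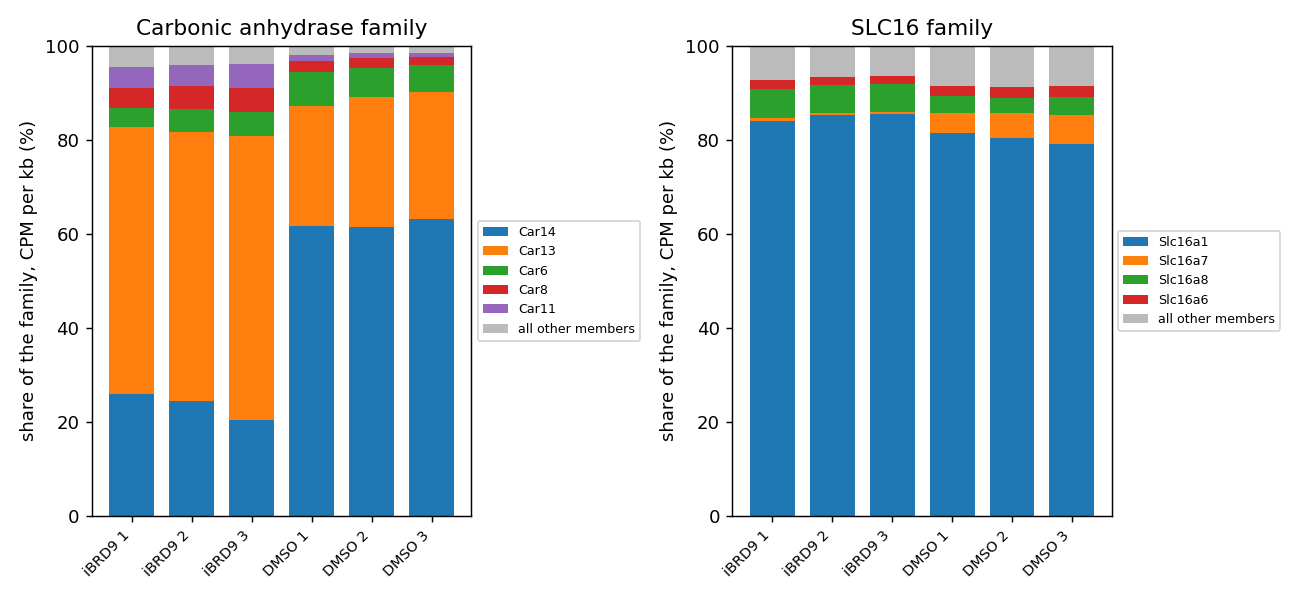
Share of each gene in the summed CPM per kb of its family, as stacked bars for the 3 iBRD9 libraries (left) and the 3 DMSO libraries (right); the remaining genes of each family are summed in grey. Car14 takes 20.4% to 25.8% of the carbonic anhydrase bar with iBRD9 and 61.4% to 63.2% with DMSO, while Slc16a1 fills most of every SLC16 bar.

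The other genes of acid and lactate handling were tested in the fit over all genes. Of 67 listed genes, 38 were tested, and 11 rose and 17 fell with iBRD9, where 29.8% of all tested genes were called higher and 30.9% lower. Their median log2 fold change was -0.04.

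Of the 12 other carbonic anhydrases, 7 were tested: 4 fell, 1 rose and 2 did not pass (median log2 fold change -0.49). Car6, the secreted enzyme of saliva, fell to 3.49 ± 0.360 CPM with iBRD9, against 15.0 ± 0.771 CPM with DMSO (log2 fold change -2.11, edgeR adjusted p = 5.70e-06). Car4, held to the membrane by a lipid anchor, also fell (-1.07, edgeR adjusted p = 0.00535), as did the inactive relative Car8 (-0.49, edgeR adjusted p = 0.00937). Car11, another inactive relative, rose by 0.57 on the log2 scale (edgeR adjusted p = 0.0102). The remaining fall, Car5a, at 0.377 CPM with iBRD9 and 0.784 CPM with DMSO, did not pass in DESeq2 or without any 1 of 5 of the 6 libraries (adjusted p up to 0.0699). Car9, the hypoxia-induced surface enzyme, did not pass, at 0.479 ± 0.0722 CPM with iBRD9 and 0.153 ± 0.200 CPM with DMSO (log2 fold change 1.62, edgeR adjusted p = 0.0781), and it passed without DMSO replicate 3 (3.38, adjusted p = 0.00602) and with limma-voom (2.38, adjusted p = 0.0277).

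Of the 10 other SLC16 genes, 4 were tested, with 1 rise, 1 fall and 2 that did not pass. Slc16a8, MCT3, the lactate carrier of the retinal pigment epithelium, rose to 11.5 ± 0.398 CPM with iBRD9, against 7.58 ± 0.760 CPM with DMSO (0.60, edgeR adjusted p = 0.00165). Without DMSO replicate 1 Slc16a4 (1.16, adjusted p = 9.32e-06) and Slc16a9 (1.36, adjusted p = 0.0340) were also called higher, and Slc16a9 was without iBRD9 replicate 2 too (1.43, adjusted p = 0.0269).

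Nptn, neuroplastin, a close relative of basigin that also accompanies MCTs, rose to 243 ± 5.03 CPM with iBRD9, against 127 ± 13.5 CPM with DMSO (log2 fold change 0.93, edgeR adjusted p = 3.65e-05). Emb, embigin, the usual partner of MCT2, did not pass, at 0.677 ± 0.0370 CPM with iBRD9 and 0.996 ± 0.159 CPM with DMSO (-0.55, edgeR adjusted p = 0.0830). Of 4 listed partners and sodium-coupled lactate carriers, 2 were tested, with 1 called higher and 0 lower (0 lower at an unadjusted p under 0.05, and 0 in DESeq2 and limma-voom).

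A further list held enzymes that make or use lactate and pyruvate, kinases and phosphatases that regulate pyruvate dehydrogenase, and pyruvate carriers. Most of its tested genes fell. Of 15 listed, 13 were tested: 9 fell, 1 rose and 3 did not pass, and the median log2 fold change was -0.38. Ldha, the lactate dehydrogenase subunit that favours lactate, fell to 489 ± 36.9 CPM with iBRD9, against 724 ± 21.0 CPM with DMSO (-0.57, edgeR adjusted p = 0.000231). Pdk2, a kinase that shuts down pyruvate dehydrogenase, fell to 17.7 ± 1.03 CPM with iBRD9, against 42.9 ± 4.89 CPM with DMSO (-1.28, edgeR adjusted p = 2.55e-05). Of the phosphatases that switch it on again, Pdp1 fell (-0.67, edgeR adjusted p = 0.00112) and Pdp2 rose (0.61, edgeR adjusted p = 0.0251). The rise of Pdp2 was lost when genes of low count were kept (adjusted p = 0.107) or without any 1 library other than DMSO replicate 1 (0.45 to 0.63, adjusted p = 0.0605 to 0.0886). The carriers of pyruvate into the mitochondrion, Mpc1 (-0.01) and Mpc2 (-0.06), did not pass, though Mpc2 did without DMSO replicate 1 (-0.13, adjusted p = 0.0413).

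Among 17 listed genes that move protons or bicarbonate across the plasma membrane, 9 were tested: 5 rose, 3 fell and 1 did not pass (median log2 fold change 0.39). Slc9a5, a sodium-proton exchanger, rose to 40.5 ± 0.967 CPM with iBRD9, against 12.9 ± 6.57 CPM with DMSO (1.66, edgeR adjusted p = 0.00109), with 2.15 without DMSO replicate 1. The sodium bicarbonate cotransporter gene Slc4a4 (1.15, edgeR adjusted p = 0.00964) and the anion exchanger gene Slc4a3 (0.83, edgeR adjusted p = 0.00354) rose as well. Hvcn1, the voltage-gated proton channel, fell to 46.0 ± 0.304 CPM with iBRD9, against 113 ± 16.6 CPM with DMSO (-1.30, edgeR adjusted p = 3.01e-05). With library size alone as the scaling 2 genes of this list fell.

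Of 9 listed receptors and channels that sense protons or lactate, 3 were tested, with 2 called higher and 0 lower (0 lower at an unadjusted p under 0.05, and 0 in DESeq2 and limma-voom). The acid-sensing channel gene Asic3 rose to 2.99 ± 0.543 CPM with iBRD9, against 0.915 ± 0.163 CPM with DMSO (1.70, edgeR adjusted p = 0.000426). The other rise was in the proton receptor gene Gpr4, at 0.618 CPM with iBRD9 and 0.138 CPM with DMSO (2.10, edgeR adjusted p = 0.01002). With a filter at 1 CPM in 3 libraries it was not tested, which left 1 call in this list, as did a threshold of 0.01.

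**Figure D4:**
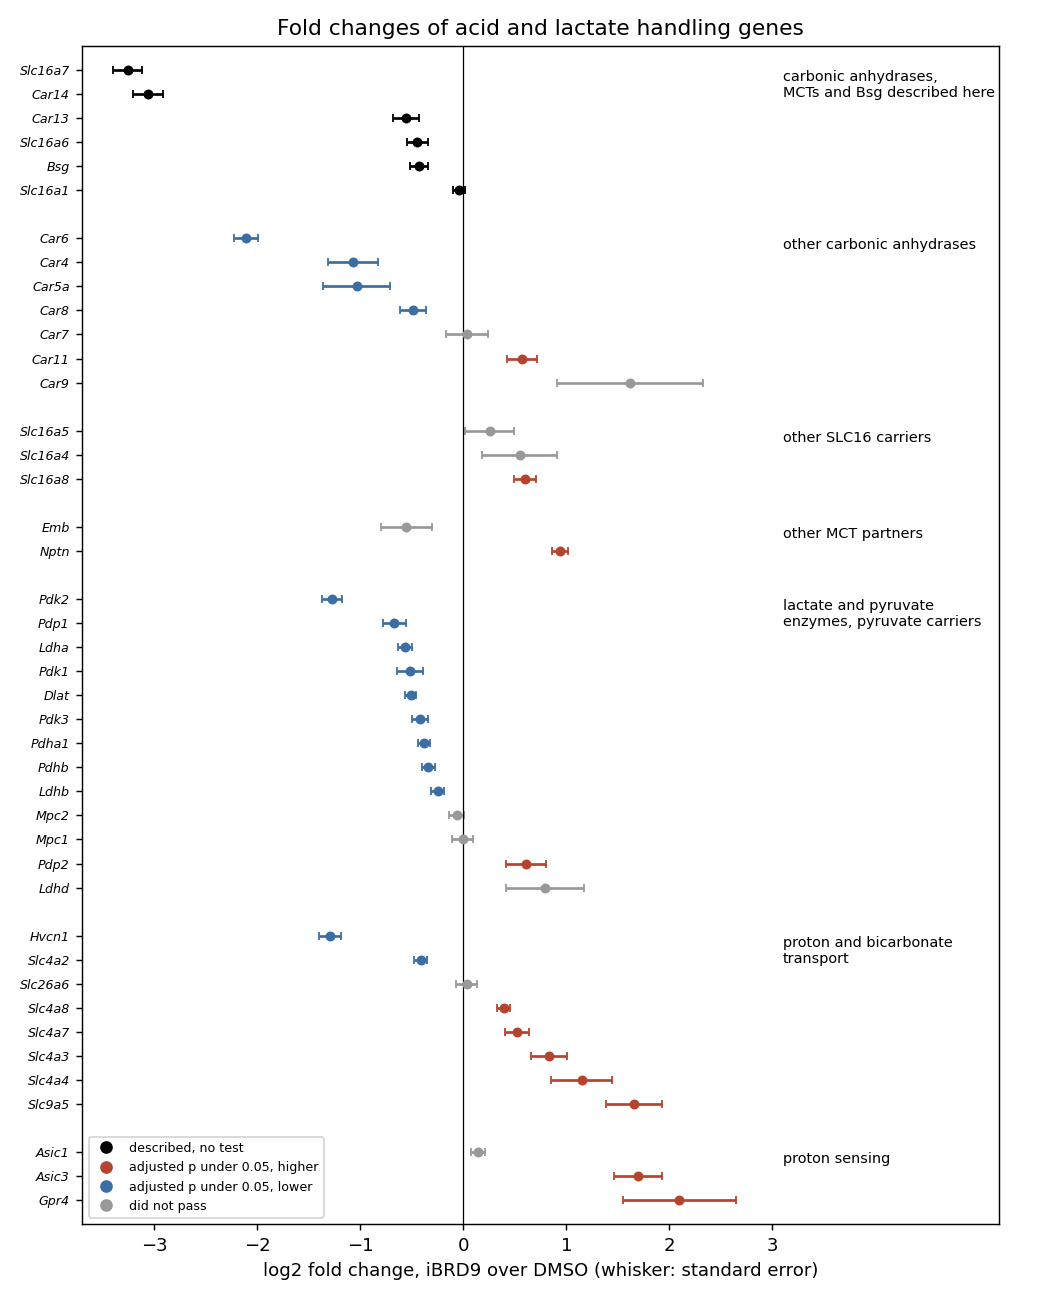
Log2 fold change of iBRD9 over DMSO with its standard error for the 6 tested genes described here (black, no test) and for 36 of the 38 other tested genes of acid and lactate handling, grouped by list and coloured by call. Slc16a7 and Car14 lie at -3.26 and -3.07, Car6 at -2.11 is the lowest of the other genes, and proton and bicarbonate transport genes lie on both sides of 0.

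The pattern over the 6 libraries that was nearest to that of Car14 was that of Slc16a7. Likeness was measured as the root-mean-square difference between log2 CPM profiles, each centred on its own mean. It was taken against 9940 other tested genes whose mean log2 CPM reached 2 and whose symbol was not that of a predicted model. The difference between Car14 and Slc16a7 was 0.107, and the glycine transporter gene Slc6a9 was next to Car14 (0.108). Among the 3 genes nearest to Slc16a7 were Car14 (0.107) and the retinal reductase gene Dhrs3 (0.140). Bsg had nearest neighbours at 0.0121 (Sh3glb1), 0.0134 (Elac2) and 0.0169 (Cox8a), all with a log2 fold change between -0.46 and -0.41. All profiles share the same 6 libraries, and genes with a like fold change come out near each other by construction.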

How the data were processed

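The authors deposited 1 table of raw read counts per Ensembl gene ID for 6 libraries. Per the labels' protocols, libraries were made from poly(A) RNA with random hexamer primers. The submitters' processing notes list CASAVA 1.8.2, Bowtie2 2.4.5 and the build GRCm39, while the sources used here name no counting program, annotation or strand setting. Of 35275 IDs, 34490 matched a symbol in GENCODE M21, an annotation of the older build GRCm38, which also gave exon lengths and overlaps.

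Counts were filtered with edgeR's filterByExpr (minimum count 10), which left 13602 genes, scaled by TMM and tested with the edgeR 4.0.16 quasi-likelihood F-test (R 4.3.3, robust, treatment alone, all 6 libraries, two-sided). P-values were adjusted over all tested genes by Benjamini-Hochberg, with a threshold of 0.05. The standard error is the log2 fold change over the square root of F. CPM are TMM-scaled, and log2 CPM used a prior count of 2. In a simulated iBRD9 against DMSO comparison of 13396 genes, 96 of 100 genes changed 2-fold and 79 of 100 changed 1.5-fold were recovered, and 5.41% of calls were unchanged genes. The changed genes were far fewer than the calls in the data and included no genes of low level. These rates therefore need not hold for the data, or for called genes of low level. Exact-zero limits use 3 counts.

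The members and all lists were chosen with earlier results of these data known. All 9 members are named, and from each list up to 4 called genes whose mean log2 CPM is not below 0. Car1, Car3, Car5a, Car9, Slc16a4, Slc16a9, Emb, Mpc1, Mpc2, Gpr4, Aph1a and Amz2 were named after their values were seen. A few genes within this rule are left out of the text. Alternatives used DESeq2 1.42.0 and limma-voom (limma 3.58.1). Figures were drawn with matplotlib 3.10.9. No replicate pair was a duplicate.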

Additional observations from a re-analysis of the deposited data

How the results depend on the processing

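Counts of called genes over all genes and over the listed genes stayed within 1.5 times their values under each alternative run (DESeq2 size factors, library size alone, DESeq2's Wald test, limma-voom, no filter, 1 CPM in 3 libraries, an adjusted p under 0.01, the replicate block). Leaving out 1 library gave 6865 to 10311 calls, against 8262. Library size alone gave 4999 higher and 3385 lower, against 4057 and 4205, a shift of 0.11 in the median log2 fold change. Of 78 repeated values of the 6 tested members, 76 moved by less than 1 SD, the pooled within-group SD of the gene's log2 CPM. Slc16a1 (0.07) and Slc16a6 (-0.34) moved by more with library size alone. Leaving out 1 of 3 libraries can hardly move a group mean by that SD. The runs without 1 library, which are among the 78, are therefore no evidence of stability on this scale. Of 224 repeats for the 16 genes that the naming rule takes outside the members, 216 kept direction and call, and 8 (7 for Pdp2, 1 for Car11 at an adjusted p under 0.01) lost the call; the cause was not tested.

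The labels give both groups replicates 1 to 3, without saying that a number marks a pair. Same-numbered libraries deviated together with correlations of 0.118, 0.0599 and 0.0248 over genes, so the numbers were not taken as pairs. The replicate block gave 3920 higher and 4017 lower calls, and 11 listed genes higher and 17 lower. Every library correlated best with its own number except replicate 3 of each group. About 3 reads per library, near 0.1 CPM, bound what can be seen of Car2 and Car12.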
